A study of Mus musculus with 64 samples.

Results

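The genes described here are the mouse zinc finger genes numbered Zfp600 to Zfp999, measured in the hippocampus of 8 inbred strains. Members were all protein-coding genes whose symbol is Zfp followed by a number in that range with no letter suffix. The count table held 171 of them among 32227 genes. Of these 171 members, 169 had at least 1 read and 159 passed the filter on low counts, which was met by 17382 genes in all. The 12 members left out of the tests were Zfp600, Zfp616, Zfp683, Zfp735, Zfp819, Zfp872, Zfp936, Zfp957, Zfp969, Zfp978, Zfp987 and Zfp989, and 2 of them (Zfp616 and Zfp735) had no read in any library.

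Bulk RNA sequencing of total RNA was carried out on 64 hippocampal libraries, with 4 female and 4 male libraries from each strain. The strains were C57BL/6J, 129S1/SvImJ, NOD/ShiLtJ, A/J, CAST/EiJ, PWK/PhJ, NZO/HlLtJ and WSB/EiJ, written here with a slash where some labels join the parts of a name differently. All of them are founders of recombinant and outbred mouse mapping populations. C57BL/6J is the strain from which the mouse reference genome was assembled, and CAST/EiJ, PWK/PhJ and WSB/EiJ are wild-derived. No treatment, age or batch was given in the labels. Titles carry running numbers that the labels do not explain: 639 to 643 for the CAST/EiJ females and 311 to 462 for all other libraries. In CAST/EiJ, sex and block of title numbers thus cannot be told apart, so a fit without these 4 females is given below. Library totals ran from 16607602 to 27759221 counts with a median of 22176356.5, and levels are given below as CPM (counts scaled to a common library size), not divided by gene length. Female and male marker genes matched the label in 64 of 64 libraries, and over the members alone the nearest library to each of the 64 was one of its own strain. Over all tested genes this held for 63 of the 64. Markers of hippocampal neurons, astrocytes, oligodendrocytes, microglia and endothelium were all above 1 CPM on average. By the F test described below, 3 of 8 neuron markers (Wfs1, Spink8 and Bok) and 1 of 4 oligodendrocyte markers (Mobp) differed among strains. None of the astrocyte, microglia and endothelial markers was called, and 27.6% of all genes were. Whether cell composition was equal among strains was not tested. The 5 choroid plexus markers varied between libraries, with a summed level of 16.5 to 4768 CPM per library.

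Most of these genes encode proteins with arrays of C2H2 zinc fingers, in which a pair of cysteines and a pair of histidines hold a zinc ion and the residues between them read DNA. Many also carry a KRAB domain, which recruits the corepressor TRIM28 and, through it, the histone methyltransferase SETDB1 to silence the bound sequence, often a retrotransposon. KRAB zinc finger genes multiply by local duplication, so they lie in clusters of near-identical copies that differ between mouse strains. The clusters on distal chromosomes 2 and 4 belong to the mouse-lineage expansion, and deletion of such clusters in mouse embryonic stem cells is known to release particular retrotransposon families from silencing. In the longest open reading frame of the GENCODE M21 transcripts, a KRAB pattern was found in 102 of the 171 members (59.6%), and the members had a median of 11 fingers.

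The coding sequence of single fingers shows how alike neighbouring members can be. Each line gives the finger coding DNA of a gene described below, 78 bases 5′ to 3′ from GENCODE M21 transcripts (GRCm38), with the cysteine and histidine codons in capitals; genes from chromosomes 5, 13, 2 and 4 were chosen because the strain differences turn on them.
Zfp605, residues 202 to 227, chromosome 5: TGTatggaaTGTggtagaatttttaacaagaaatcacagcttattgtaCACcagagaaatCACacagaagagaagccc
Zfp738, residues 149 to 174, chromosome 13: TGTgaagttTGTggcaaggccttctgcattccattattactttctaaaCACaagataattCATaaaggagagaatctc
Zfp965, residues 152 to 177, chromosome 2: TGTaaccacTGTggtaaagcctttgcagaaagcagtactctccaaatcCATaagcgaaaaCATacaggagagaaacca
Zfp973, residues 152 to 177, chromosome 2: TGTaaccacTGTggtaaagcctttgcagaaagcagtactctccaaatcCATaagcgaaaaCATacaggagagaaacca
Zfp990, residues 277 to 302, chromosome 4: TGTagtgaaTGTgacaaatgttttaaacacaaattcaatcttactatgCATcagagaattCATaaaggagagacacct
Zfp980, residues 253 to 278, chromosome 4: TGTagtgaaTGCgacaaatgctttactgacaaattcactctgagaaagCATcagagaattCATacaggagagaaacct
The fingers of the chromosome 2 neighbours Zfp965 and Zfp973 differed at 0 of 78 bases, and those of the chromosome 4 neighbours Zfp990 and Zfp980 at 12. The fingers of Zfp605 and Zfp738, which lie on different chromosomes, differed at 28 bases, leaving an identity of 64.1%. The finger shown is the first canonical one for Zfp605, Zfp738, Zfp965 and Zfp990, while those of Zfp973 and Zfp980 were picked as the closest to the finger of Zfp965 and of Zfp990, so the 28 is not comparable with the 0 and the 12. A read that falls wholly in the Zfp965 finger therefore fits Zfp973 equally well. How reads matching several genes were counted is not given in the sources used here, so values of members that share sequence are uncertain between the copies.

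The 8 strain means of a member were compared with a single quasi-likelihood F test in edgeR. A gene was called when its Benjamini-Hochberg adjusted p was below 0.05 and its highest and lowest strain means differed by at least 1 on the log2 scale. By this rule 44 of the 159 tested members (27.7%) differed among strains, against 27.6% of all genes tested. The share called was thus close to that of all genes, and this also held within levels, with 11 of 14 members called below 1 CPM (78.6%, against 76.9% of all genes at that level) and 1 of 38 above 20 CPM (2.63%, against 4.03%). Without the fold minimum 142 members (89.3%) passed the adjusted p, against 89.2% of all genes. Among 215 other tested Zfp genes 24 were called (11.2%).

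The called members were unevenly spread over the genome. With clusters defined as at least 4 members whose neighbouring starts are at most 1000000 bases apart, 96 members fell into 12 clusters. In the clusters on chromosomes 2 and 4 together, 20 of 23 tested members were called (87.0%), while the other 10 clusters had 11 of 65 called (16.9%) and the members outside clusters 13 of 71 (18.3%). The chromosome 4 cluster had 12 of its 13 tested members called, and the chromosome 2 cluster 8 of 10. None of the 5 members tested in the chromosome 6 cluster, nor of the 9 in one chromosome 7 cluster, was called. Chromosome 7 as a whole holds 35 members, of which 33 were tested and 4 called. The counts by cluster were not split by level. Of all genes, 76.9% were called below 1 CPM, 52.6% at 1 to 5, 20% at 5 to 20 and 4.03% above 20 CPM. Apart from Zfp933, which was not called, tested members of the chromosome 4 cluster averaged 0.240 to 3.97 CPM. Those of the chromosome 2 cluster averaged 0.297 to 49.4 CPM and those of the chromosome 6 cluster 4.39 to 32.2 CPM. The part of level in the uneven spread was not tested.

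Called members and members not called were also counted by their sequence. A KRAB pattern was found in 36 of 44 called members (81.8%) and in 58 of 115 members not called (50.4%). Shared sequence was measured as the share of a member's transcript 50-mers that occur in another gene, and its median was 40% among called members and 0.577% among those not called. Among members sharing at least 10% of their 50-mers 31 of 53 were called (58.5%), and among the rest 13 of 106 (12.3%). The median shared share was 88.4% in the chromosome 2 cluster and 68.1% in the chromosome 4 cluster. These are counts over genes that share libraries and clusters, so no test was made of them, and the part of read assignment in the strain differences was not tested. Neither split was made within levels, and the share called depends on level, from 78.6% of members below 1 CPM to 2.63% above 20 CPM. The part of level in these differences was not tested.

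**Figure D1:**
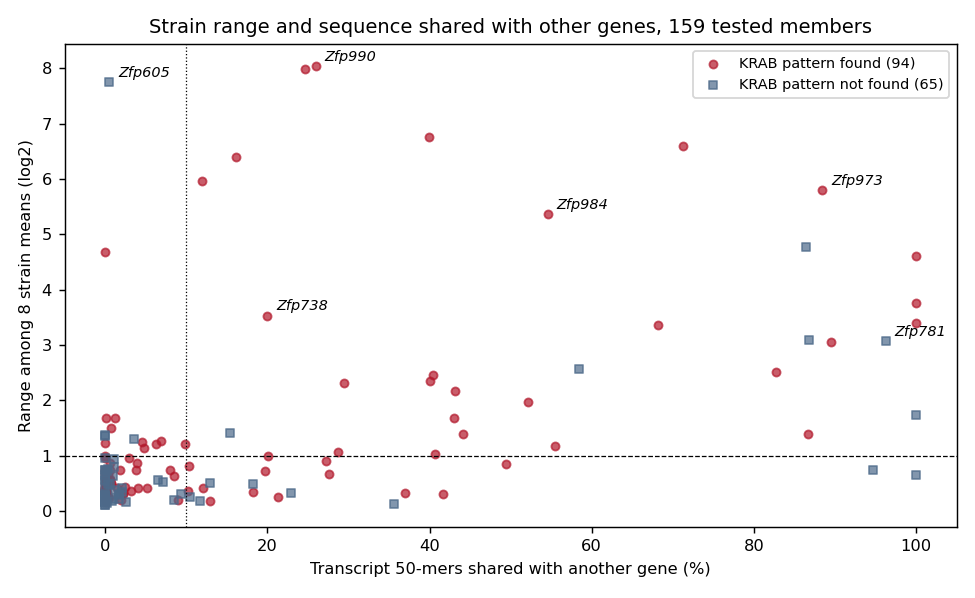
Range among the 8 strain means (log2, vertical axis) against the share of transcript 50-mers found in another gene (percent, horizontal axis) for the 159 tested members; circles mark the 94 members with a KRAB pattern and squares the 65 without, the dashed line the fold minimum of 1 and the dotted line 10% sharing. Of the 53 members at or right of the dotted line 31 were called, and Zfp605 stands far above the dashed line with 0.450% of its 50-mers shared.

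For 21 of the 44 called members the widest gap between neighbouring strain means set a single low strain apart from the other 7, and this was WSB/EiJ for 9 members, PWK/PhJ for 6, CAST/EiJ for 4, and C57BL/6J and NOD/ShiLtJ for 1 each. A single high strain stood apart for 9 members. CAST/EiJ most often had the highest mean, for 15 of the 44, and NOD/ShiLtJ was next with 10. WSB/EiJ most often had the lowest mean, for 11. These patterns were not counted over all genes, so they cannot be read as particular to the members. Over all genes, calls against the mean of the other 7 strains were most frequent in CAST/EiJ (4.02% higher, 5.22% lower) and PWK/PhJ (3.75% and 5.6%). For WSB/EiJ they were 2.51% and 2.43%.

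Loss in a single strain was defined as a strain mean at most 0.1 times the lowest of the other 7 strain means, with that lowest mean at least 0.5 CPM. It was met by 2 members, Zfp605 in PWK/PhJ and Zfp984 in CAST/EiJ. In PWK/PhJ the level of Zfp605 was 0.00532 of that in the next lowest strain, and in CAST/EiJ that of Zfp984 was 0.0849 of it. Just outside the limit stood Zfp738, at 0.132 in WSB/EiJ, and Zfp781, at 0.198 in CAST/EiJ.

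Zfp605, a zinc finger gene on chromosome 5 in whose longest reading frame no KRAB pattern was found, was almost silent in PWK/PhJ. Its lowest, median and highest levels were 0, 0.0515 and 0.157 CPM in the 8 PWK/PhJ libraries, against 6.63, 12.9 and 17 CPM in the 56 libraries of the other strains. No PWK/PhJ library came near any other, and the 8 together held 10 reads of the gene. The log2 difference of PWK/PhJ from the mean of the other 7 strains was -7.62 (SE 0.21, edgeR adjusted p = 5.33e-37). Zfp605 shared 0.450% of its 50-mers with other genes. Of its 4 nearest tested genes, Plcxd1, a phospholipase C-like gene, was also called lower in PWK/PhJ, with 2.52 CPM against 8.09 CPM in the other strains. Gtpbp6 and the ubiquitin ligase gene Chfr averaged 23.1 and 30.4 CPM in PWK/PhJ, against 22.8 and 24.2 CPM in the other strains, and neither was called.

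Zfp738, a KRAB zinc finger gene of the chromosome 13 cluster, was low in WSB/EiJ. The 8 WSB/EiJ libraries had 2.01, 2.47 and 3.44 CPM as lowest, median and highest, against 18.8, 24.6 and 34.9 CPM in the other 56. The groups did not overlap, which the rule for naming the gene required. The log2 difference was -3.23 (SE 0.07, edgeR adjusted p = 3.37e-41). Its 4 nearest tested genes were not called in WSB/EiJ. Zfp729a, a KRAB zinc finger neighbour, averaged 18.3 CPM in WSB/EiJ and 18.8 CPM in the other strains. Zfp738 shared 19.96% of its 50-mers with other genes. The 6 members of its cluster, Zfp738 included, added up to 32.4 ± 2.34 CPM in WSB/EiJ and to strain means of 50.8 to 60.7 CPM elsewhere (SD, n = 8 a strain).

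Zfp781 on chromosome 10 was low in CAST/EiJ, at 0.657, 1.02 and 1.30 CPM (lowest, median and highest of 8), against 3.86, 6.88 and 9.80 CPM in the other 56 libraries. The log2 difference was -2.78 (SE 0.09, edgeR adjusted p = 1.95e-33). This value is uncertain as to the gene, since 95.0% of the 50-mers of Zfp781 also occur in Gm3055. Gm3055 itself averaged 0.0449 ± 0.0832 CPM in CAST/EiJ, against 6.41 ± 0.983 CPM in C57BL/6J and 3.54 ± 0.654 CPM in PWK/PhJ (SD, n = 8 each). Its CAST/EiJ mean was the lowest of the 8, as was that of Zfp781.

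**Figure D2:**
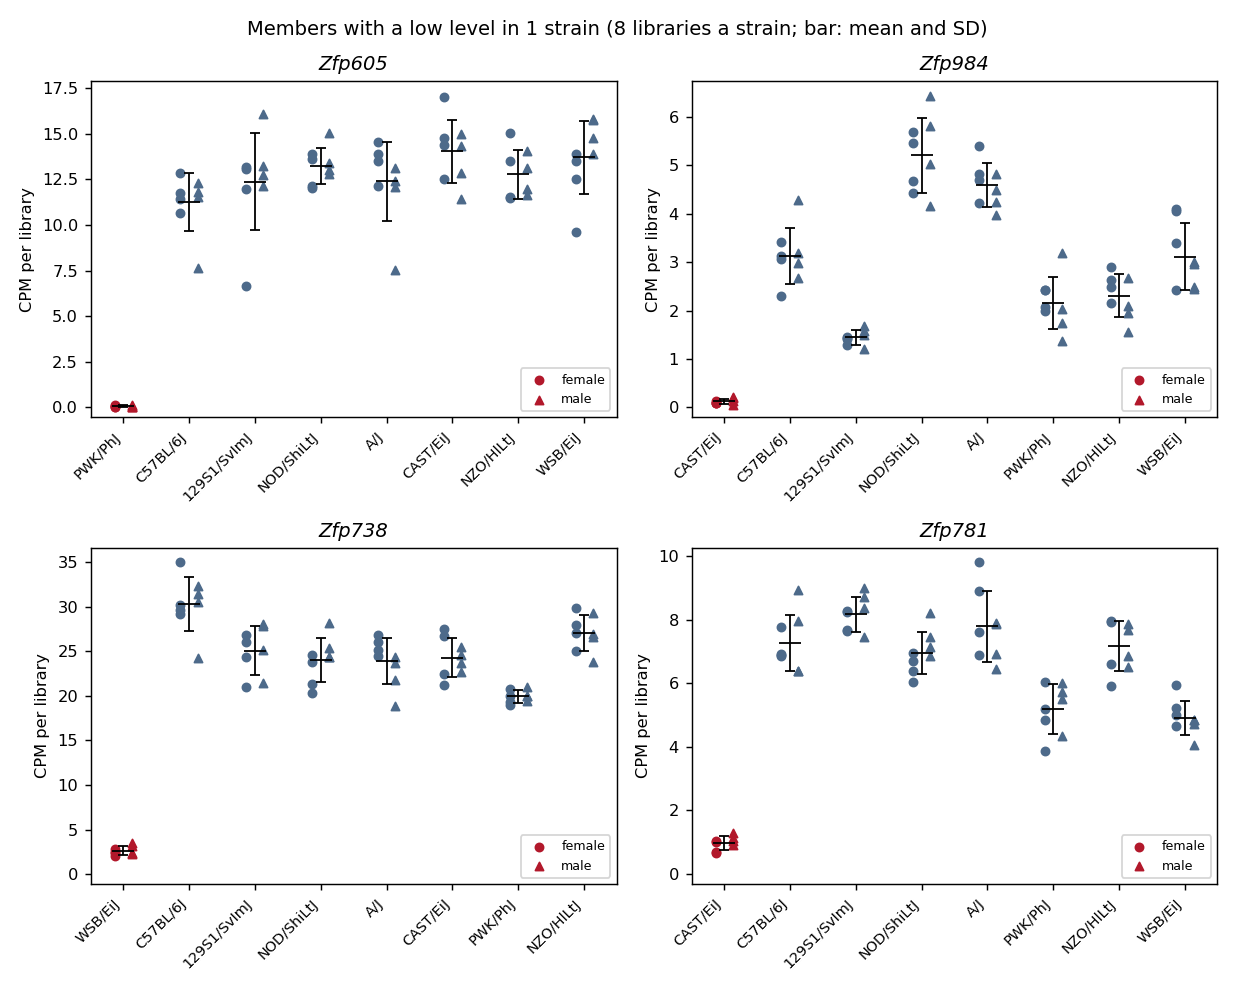
CPM per library of Zfp605, Zfp984, Zfp738 and Zfp781 (vertical axes, each from 0) in the 8 strains (horizontal axes), with the low strain first and in red, circles for female and triangles for male libraries, and bars for the mean and SD of 8 libraries. In each panel the 8 red libraries lie below the other 56, which the rule for naming these genes required, and Zfp605 in PWK/PhJ does not exceed 0.157 CPM.

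**Figure D3:**
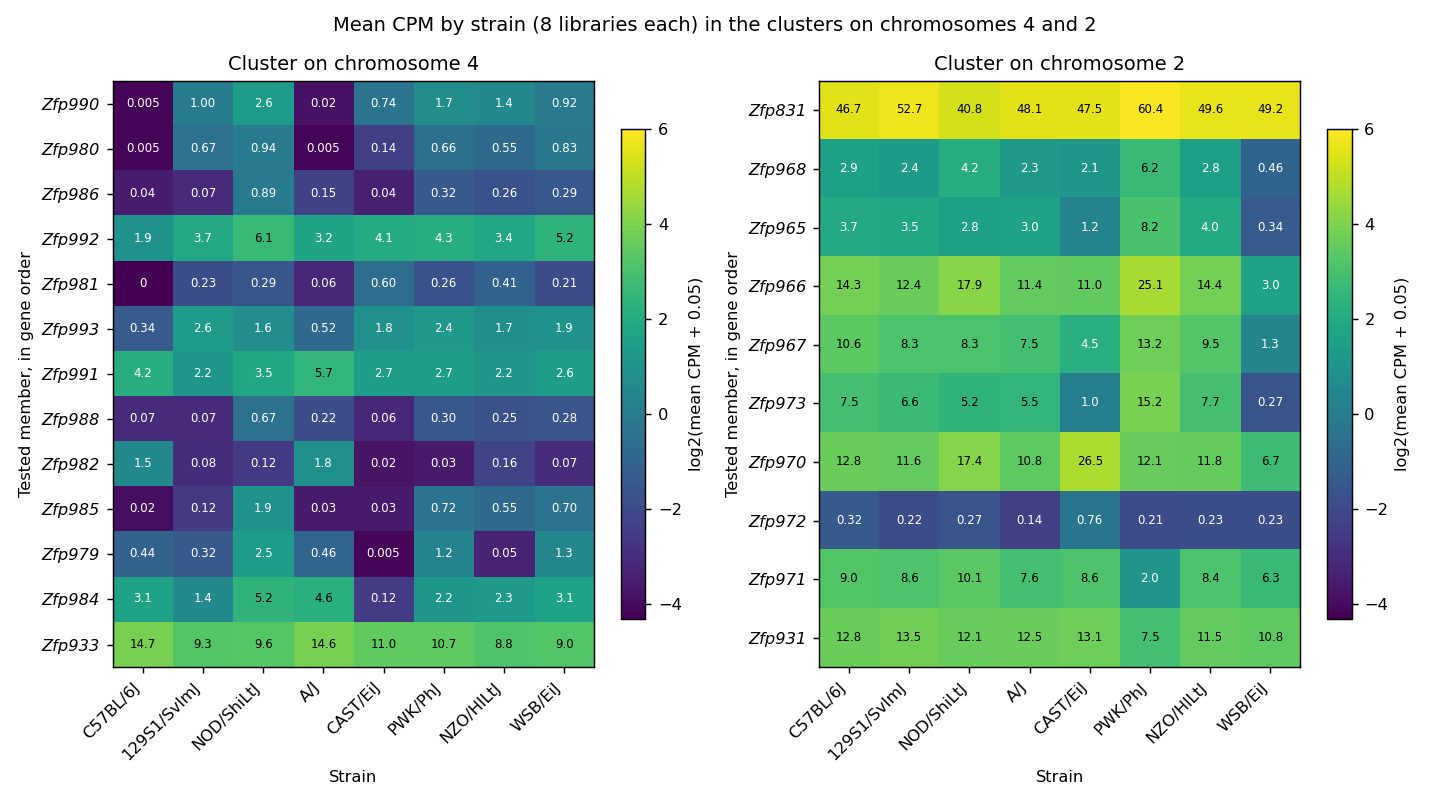
Mean CPM of 8 libraries in each strain (numbers in the cells; colours give log2 of the mean plus 0.05) for the tested members of the clusters on chromosome 4 (left) and chromosome 2 (right), in gene order, with strains across. Zfp990 and Zfp980 are dark in C57BL/6J and A/J, Zfp982 is bright in those strains, and the block from Zfp968 to Zfp973 is dark in WSB/EiJ and bright in PWK/PhJ.

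The chromosome 4 cluster showed no single low strain: its members followed several different patterns over the same 8 strains. Its 17 members were weakly expressed, with strain sums of 21.5 to 36.5 CPM, so that for the rarest of them a library held few reads or none. NOD/ShiLtJ had the highest sum, at 32.8, 35.2 and 42.4 CPM (lowest, median and highest of 8), against 17.9, 25.0 and 36.8 CPM in the other 56 libraries. NOD/ShiLtJ had the highest mean for 8 of the 13 tested members. Against the mean of the other 7 strains, with the same thresholds as for the F test, 7 were called higher there and 0 lower (2.75% and 1.16% of all genes).

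Zfp990, a KRAB zinc finger gene, was detected with 1 read in the 8 C57BL/6J libraries and 4 reads in the 8 A/J libraries, while the means of the other strains ran from 0.741 CPM in CAST/EiJ to 2.59 CPM in NOD/ShiLtJ. In NOD/ShiLtJ its levels were 2.12, 2.47 and 3.29 CPM (lowest, median and highest), against 0, 0.862 and 2.30 CPM in the other 56 libraries, and the log2 difference was 2.97 (SE 0.17, edgeR adjusted p = 6.52e-21). Zfp980 followed the same order at its lower end, with 1 read in C57BL/6J, 1 read in A/J, and strain means of 0.144 to 0.935 CPM in the others. Zfp981 had 0 reads in the 8 C57BL/6J libraries and 11 in the 8 A/J libraries. With 3 counts over the C57BL/6J group taken as the limit that 0 reads allow (0.0172 CPM), Zfp981 was at least 17.1-fold lower there than the 0.294 CPM averaged by the other strains. Rex2, a related KRAB zinc finger gene of chromosome 4 that shares 58.6% of the 50-mers of Zfp980, was also at 0 reads in both strains, and averaged 0.681 to 1.69 CPM in the other 6. The fitted ranges of these genes, 8.04 for Zfp990, 6.60 for Zfp980 and 6.75 for Zfp981 on the log2 scale, depend on how 0 reads are handled and are no bounds. The log2 difference of 2.97 for Zfp990 in NOD/ShiLtJ depends on it too, since the C57BL/6J females among the other strains held 0 reads. These low values include those of C57BL/6J, the strain of the reference genome; whether reads of the other strains were aligned to their own genomes is not given in the sources used here.

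Zfp982 ran the other way. It had 1.10, 1.32 and 2.37 CPM in C57BL/6J (lowest, median and highest) and 0.760, 1.83 and 2.71 CPM in A/J, while the other 6 strain means lay between 0.0238 CPM in CAST/EiJ and 0.164 CPM in NZO/HlLtJ. The log2 difference from the mean of the other 7 strains was 3.69 in C57BL/6J (SE 0.26, edgeR adjusted p = 2.56e-18) and 3.98 in A/J (SE 0.25, adjusted p = 3.41e-20). Zfp982 passed the filter on low counts only through C57BL/6J and A/J libraries, the groups where it is high. Its tests there are thus no independent support. Zfp991 was likewise highest in these strains, at 5.71 CPM in A/J and 4.21 CPM in C57BL/6J, against 2.17 to 3.52 CPM elsewhere. It was called higher in A/J but not in C57BL/6J. Of the 50-mers of Zfp991, 86.7% occur in other genes and 61.6% in Zfp992, which was called lower in C57BL/6J. The levels of these copies are thus uncertain between them. As measured, C57BL/6J and A/J carried the lowest levels of some members of the cluster and the highest of others.

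Zfp985 was the only member whose NOD/ShiLtJ libraries all lay above the other 56 (0.629% of members; 0.144% of all genes did so). Its levels were 1.27, 1.79 and 2.78 CPM in NOD/ShiLtJ, against 0, 0.148 and 1.18 CPM in the other strains, with a log2 difference of 3.79 (SE 0.19, edgeR adjusted p = 6.04e-24). Zfp986 has 66.3% of its 50-mers in Zfp988, and Zfp988 has 37.4% of its own in Zfp986. They averaged 0.889 and 0.668 CPM in NOD/ShiLtJ, above their means in each of the other 7 strains. For Zfp986 the log2 difference was 2.84 (SE 0.25, adjusted p = 3.88e-14).

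At the end of the cluster, Zfp984 and Zfp979 were low in CAST/EiJ. Zfp984 had 0.0479, 0.111 and 0.216 CPM there (lowest, median and highest), against 1.21, 2.94 and 6.42 CPM in the other 56 libraries. The groups did not overlap, which the rule for naming Zfp984 required. The log2 difference was -4.51 (SE 0.18, edgeR adjusted p = 5.83e-30). Zfp979 had 1 read in the 8 CAST/EiJ libraries and 9 in the 8 NZO/HlLtJ libraries, where it averaged 0.0494 CPM, while NOD/ShiLtJ averaged 2.50 CPM. With 2 low strains it did not meet the rule for loss in a single strain. The lincRNA genes Gm16211 and Gm20707 next to Zfp984 were also called lower in CAST/EiJ, whereas the neighbouring member Zfp933 averaged 11 CPM both in CAST/EiJ and over the other strains. The transcript of Zfp984 shares 54.6% of its 50-mers with other genes.

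The chromosome 2 cluster had its lowest sum in WSB/EiJ and its highest in PWK/PhJ, and only some of its members followed that order. Its 11 members summed to 62.4, 80.3 and 84.7 CPM in WSB/EiJ (lowest, median and highest of 8), against 73.5, 121 and 173 CPM in the other 56 libraries. The library A/J male 2, at 73.5 CPM, was the only one of the 56 inside the WSB/EiJ range. In PWK/PhJ the sum was 126, 152 and 173 CPM, against 62.4, 117 and 137 CPM in the others. In WSB/EiJ 6 of the 10 tested members were called lower (Zfp965, Zfp966, Zfp967, Zfp968, Zfp970 and Zfp973; 2.43% of all genes), and in PWK/PhJ 5 of 10 were called higher (Zfp965, Zfp966, Zfp967, Zfp968 and Zfp973; 3.75% of all genes). Zfp971 was called lower in PWK/PhJ, against this direction (5.6% of all genes), and over the 8 strain means (log2 of CPM plus 0.05) 19 of the 45 pairs of tested members had a correlation below 0, with a median r of 0.18, given as a description. The members called lower in WSB/EiJ and higher in PWK/PhJ share sequence, so these calls are not separate observations. Zfp831, counted in the cluster by its position although it shares no 50-mer with another gene, was not called, and it made up much of the sums, at 49.2 CPM in WSB/EiJ and 60.4 CPM in PWK/PhJ. Without it the other 10 members summed to 26.0, 30.0 and 30.9 CPM in WSB/EiJ, against 42.7, 72.5 and 103 CPM in the other 56 libraries, and to 74.1, 89.1 and 103 CPM in PWK/PhJ, against 26.0, 67.5 and 89.7 CPM. The WSB/EiJ libraries then overlapped no other, while those of PWK/PhJ still overlapped the rest.

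**Figure D4:**
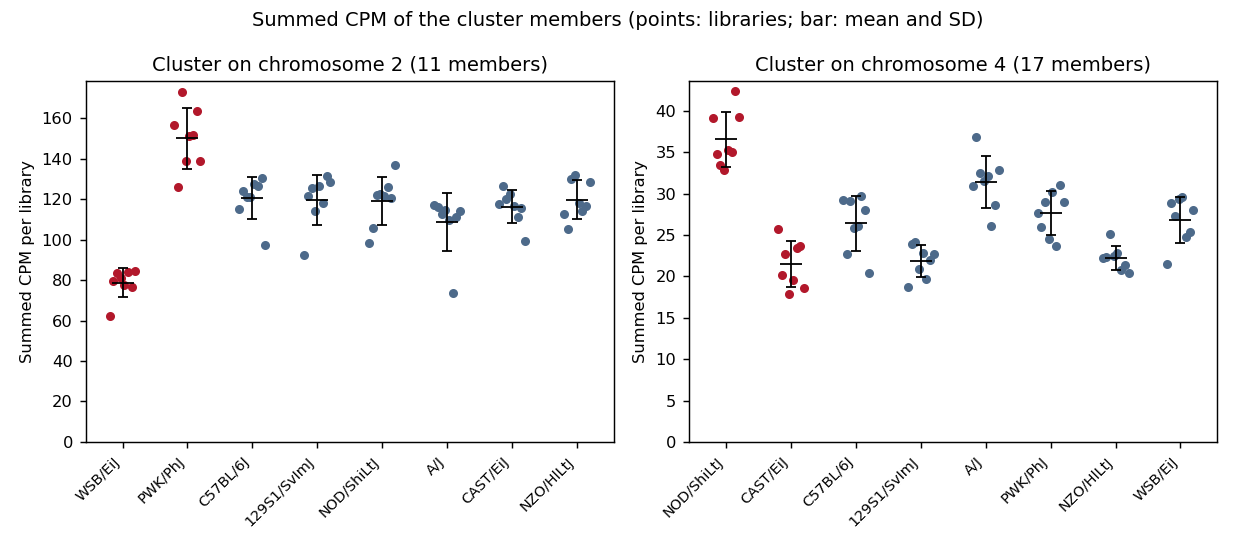
Summed CPM per library (vertical axes, from 0) of the 11 members of the chromosome 2 cluster and the 17 of the chromosome 4 cluster, by strain, with the strains of the lowest and highest sums first and in red; points are libraries and bars the mean and SD of 8. On chromosome 2 the WSB/EiJ mean was 78.7 CPM and the PWK/PhJ mean 150 CPM, and on chromosome 4 NOD/ShiLtJ averaged 36.5 CPM and CAST/EiJ 21.5 CPM.

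Zfp973 had the widest strain range of the tested members of this cluster. It was at 0.0929, 0.255 and 0.506 CPM in WSB/EiJ (lowest, median and highest), against 0.809, 6.54 and 18.6 CPM in the other 56 libraries, a log2 difference of -4.35 (SE 0.17, edgeR adjusted p = 4.13e-29). In PWK/PhJ it was at 12, 15.1 and 18.6 CPM, against 0.0929, 5.56 and 9.22 CPM, a log2 difference of 2.27 (SE 0.09, adjusted p = 7.5e-31). CAST/EiJ was the second lowest strain at 1.04 CPM. Zfp965, all of whose 50-mers occur in Zfp973, followed the same order, with means of 0.343 CPM in WSB/EiJ, 1.17 CPM in CAST/EiJ and 8.21 CPM in PWK/PhJ. For Zfp965 the log2 differences were -3.28 in WSB/EiJ (SE 0.17, adjusted p = 1.38e-23) and 1.98 in PWK/PhJ (SE 0.10, adjusted p = 1.25e-25). Since no 50-mer is particular to Zfp965, reads of these copies cannot be told apart over its transcript.

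Zfp966, Zfp967 and Zfp968 were also lowest in WSB/EiJ and highest in PWK/PhJ. All 50-mers of Zfp967 and of Zfp968 occur in Zfp966, and 89.5% of those of Zfp966 occur in other genes. Reads of these copies thus cannot be told apart over most of their transcripts, and the shared order is not that of separate observations. Zfp966 averaged 3.01 ± 0.622 CPM in WSB/EiJ, against 15.2 ± 5.01 CPM in the other strains, and 25.1 ± 2.21 CPM in PWK/PhJ, against 12.1 ± 4.68 CPM in the others (SD, n = 8 against 56). Of the 6 non-member genes among the 4 nearest tested genes of Zfp973 and of Zfp965, 4 were called lower in WSB/EiJ. Gm14305 averaged 1.55 CPM in WSB/EiJ and 32.8 CPM in the other strains, Gm14295 0.454 CPM and 13.8 CPM, Gm4724 0.134 CPM and 13.7 CPM, and Gm14288 1.46 CPM and 7.93 CPM. Gm6710 was not called, averaging 23.6 CPM in WSB/EiJ and 22.7 CPM in the other strains (log2 difference 0.32). Gm14308 averaged 0.0253 CPM in WSB/EiJ and 2.87 CPM in the other strains, with a fitted log2 difference of -6.27. The edgeR contrast gave no usable p for Gm14308, so the lack of a call does not show an unchanged level. These neighbours were examined after the member values had been seen.

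Other members of the cluster showed other orders of the strains. Zfp971 was low in PWK/PhJ, where 5 other members of the cluster were called higher, at 1.53, 1.99 and 2.65 CPM, against 5.14, 8.59 and 12.1 CPM in the other libraries (log2 difference -2.06, SE 0.10, edgeR adjusted p = 5.45e-26). Zfp970 was high in CAST/EiJ, at 23.2, 26.5 and 30.2 CPM, against 5.85, 12.2 and 19.8 CPM (log2 difference 1.20, SE 0.06, adjusted p = 1.56e-26). Its 4 nearest tested genes were all called in CAST/EiJ, 3 of them higher, of which Gm14322 averaged 18.2 CPM in CAST/EiJ and 2.68 CPM in the other strains. Gm14412 was the lower one, at 0.260 CPM in CAST/EiJ and 1.25 CPM elsewhere.

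Outside the clusters on chromosomes 2 and 4, 24 members were called, among them 6 on chromosome 17, 4 on chromosome 13 and 4 on chromosome 7. On chromosome 8, Zfp963, a KRAB zinc finger gene, was high in WSB/EiJ at 8.85, 9.81 and 11.7 CPM, against 1.41, 2.95 and 7.80 CPM in the other libraries, with a log2 difference of 1.71 (SE 0.06, edgeR adjusted p = 1.27e-31). The next highest strain was 129S1/SvImJ, at 6.79 CPM. Its neighbour Zfp964 averaged 3.79 CPM in WSB/EiJ and 4.08 CPM in the other strains. On chromosome 7, Zfp974 was low in PWK/PhJ at 2.59, 3.05 and 3.60 CPM, against 4.50, 7.13 and 9.69 CPM, with a log2 difference of -1.21 (SE 0.07, adjusted p = 5.52e-21). Zfp663 on chromosome 2, which shares no 50-mer with another gene, had 0.259, 0.524 and 0.770 CPM in CAST/EiJ, against 0, 0.0455 and 0.338 CPM elsewhere, a log2 difference of 3.13 (SE 0.31). It passed the filter on low counts only through CAST/EiJ libraries, the group where it is high, so its test there is no independent support. Without the 4 CAST/EiJ females Zfp663 no longer passed the filter on low counts and could not be tested.

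On chromosome 17, with 22 members, the strains split in other ways. Zfp983 averaged 7.94 CPM in C57BL/6J and 7.32 CPM in NOD/ShiLtJ, against 11.8 to 16.8 CPM in the other 6 strains. Zfp758, in the same cluster, averaged 5.41 CPM in 129S1/SvImJ, 5.18 CPM in A/J and 4.72 CPM in NZO/HlLtJ, against 7.43 to 11 CPM in the other 5. Zfp811, from a second cluster on that chromosome, averaged 2.58 CPM in PWK/PhJ, 2.59 CPM in A/J, 3.47 CPM in WSB/EiJ and 3.83 CPM in CAST/EiJ, against 6.40 to 7.34 CPM in the other 4. All of these genes were called by the F test, each with fewer than 10% of its 50-mers shared.

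When every strain was set against the average of its 7 counterparts, with the same thresholds, CAST/EiJ and PWK/PhJ had the most member calls. In CAST/EiJ 8 members were called higher and 10 lower, against 4.02% and 5.22% of all genes, and in PWK/PhJ 11 higher and 6 lower, against 3.75% and 5.6%. WSB/EiJ had 7 higher and 8 lower, against 2.51% and 2.43%, and C57BL/6J 2 higher and 8 lower, against 2.3% and 1.56%. Of the 8 lower in C57BL/6J, 7 lie in the chromosome 4 cluster. NOD/ShiLtJ had 8 higher and 0 lower (2.75% and 1.16% of all genes), A/J 4 and 3 (2.17% and 1.42%), 129S1/SvImJ 5 and 1 (2.12% and 1.51%) and NZO/HlLtJ 6 and 1 (2.67% and 0.978%). For the 0 lower in NOD/ShiLtJ, DESeq2 gave the same count, and 25 members were lower there in edgeR when no fold minimum was set.

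The smallest counts moved by over 1.5 times with other settings. C57BL/6J higher became 4 without the filter, A/J lower 6 with DESeq2, NZO/HlLtJ lower 2 with DESeq2, and 129S1/SvImJ lower 2 without its female 2 or its female 3 and 3 without its male 4.

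A strain near 0 lowers the mean of the other 7 for every remaining strain, so calls of higher levels need care. Zfp605 was called higher in 6 strains although its means outside PWK/PhJ ran only from 11.2 to 14.0 CPM, and the same applies to chromosome 4 members near 0 in C57BL/6J and A/J. A further 7 contrasts of 5 members (Zfp663, Zfp979, Zfp980, Zfp981 and Zfp990) could not be tested in edgeR because a strain and sex group held 0 reads. DESeq2 called 5 of them lower, Zfp980 in C57BL/6J, Zfp980, Zfp981 and Zfp990 in A/J, and Zfp979 in NZO/HlLtJ. A stricter count asked that all 8 libraries of a strain lie outside the other 56. In WSB/EiJ 8 members lay below (5.03%, against 0.408% of all genes) and 1 above. In PWK/PhJ 5 lay below and 5 above (1.65% and 2.09% of all genes), in CAST/EiJ 2 and 3 (1.62% and 2.15%), and in C57BL/6J (0.121% and 0.259% of all genes), 129S1/SvImJ (0.138% and 0.167%), A/J (0.121% and 0.104%) and NZO/HlLtJ (0.127% and 0.265%) no member did. Of the 8 in WSB/EiJ, 5 belong to the chromosome 2 cluster and share sequence, so they are not 8 separate observations.

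**Figure D5:**
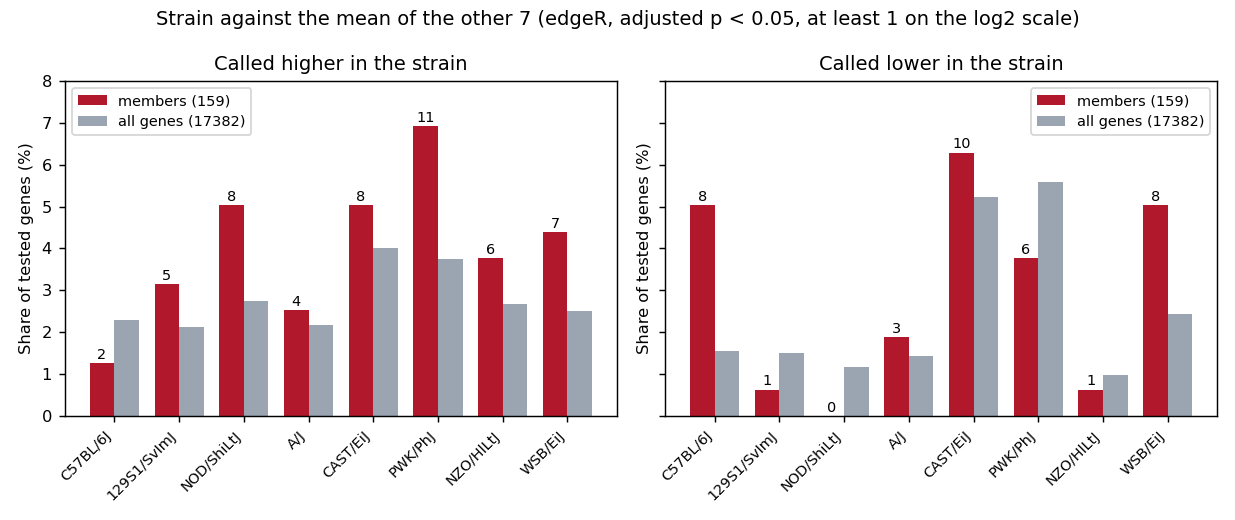
Share of tested genes called higher (left) or lower (right) in a strain relative to the average of its 7 counterparts (percent, vertical axes from 0), for the 159 members in red with their number above each bar and for all 17382 genes in grey. In WSB/EiJ 5.03% of members were called lower, against 2.43% of all genes, and in C57BL/6J 5.03% of members, against 1.56% of all genes.

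The members with the most reads had narrow strain ranges. Zfp706, a small zinc finger protein, had strain means of 247 to 284 CPM, Zfp871 98.7 to 123 CPM, Zfp638, whose human counterpart takes part in silencing unintegrated retroviral DNA, 94.9 to 106 CPM, Zfp664 88.5 to 100.5 CPM, Zfp651 85.0 to 91.9 CPM and Zfp704 59.4 to 82.9 CPM. None of these 6 was called, where 4.03% of all genes above 20 CPM were, and their fitted ranges ran from 0.11 for Zfp651 to 0.49 for Zfp704 on the log2 scale. In bulk tissue, fewer cells expressing a gene and less RNA per cell cannot be told apart.

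Members with a known target or function, taken for that role rather than for their values, were looked up next. Zfp809, which recruits TRIM28 to the primer binding site of murine leukaemia viruses in embryonic stem cells, had strain means of 6.71 to 8.46 CPM (edgeR F test adjusted p = 0.0715). Zfp708, which binds a class of retrotransposon-derived repeats in early embryos, had 2.21 to 3.47 CPM, a level that cannot be assigned to it alone since all of its 50-mers also occur in Gm28557. The level of Zfp661, which acts at protocadherin genes in the brain, was 6.92 to 9.51 CPM. Zfp609, a partner of the cohesin loader NIPBL in cortical neurons, had 51.1 to 59.6 CPM (adjusted p = 0.281). Of those 4, Zfp708 and Zfp661 passed the adjusted p without reaching the fold minimum. Zfp932, which with its copy Gm15446 binds endogenous retroviruses, was called by the F test. It was at 22.9, 25.2 and 29.0 CPM in CAST/EiJ (lowest, median and highest), against 10.1, 14.4 and 20.9 CPM in the other libraries, with 55.5% of its 50-mers shared with other genes.

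The proteins through which KRAB domains act were measured in the same libraries. Of 23 corepressor genes listed, 23 were tested and 0 were called by the edgeR F test with the fold minimum, against 27.6% of all genes, while 18 passed the adjusted p alone, against 89.2% of all genes. Of the 23, 21 had a mean above 20 CPM, a level at which 4.03% of all genes were called, so the 27.6% is not a matched background for them. The widest range among them was 0.79 on the log2 scale. Trim28, the common KRAB corepressor, had strain means of 138 CPM in NZO/HlLtJ to 158 CPM in WSB/EiJ, and Setdb1, its histone methyltransferase, 30.1 CPM in NOD/ShiLtJ to 37.9 CPM in A/J. The ranges were 0.19 and 0.33 on the log2 scale, and both passed the adjusted p alone (0.00373 and 5.03e-07). The sum over the 171 members was likewise narrow, from 2584 CPM in WSB/EiJ to 2735 CPM in 129S1/SvImJ.

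Few sex differences were called. With strain in the model, 1 of 159 members was called between females and males at an adjusted p below 0.05 without a fold minimum, against 0.167% of all genes. At an unadjusted p below 0.05 there were 9 members (5.66%, against 5.3% of all genes). The called member was Zfp772, a KRAB zinc finger gene on chromosome 7, with 6.70 ± 1.82 CPM in females and 5.90 ± 2.204 CPM in males (SD over 32 libraries each, strain differences included). The log2 difference of females from males was 0.23 (SE 0.04, edgeR adjusted p = 0.00301), and the female mean was higher in 7 of 8 strains, all but C57BL/6J. In NOD/ShiLtJ females averaged 5.40 CPM and males 3.71 CPM. Zfp772 also differed among strains, from 3.76 CPM in A/J to 8.99 CPM in C57BL/6J. No member was called for a sex difference that varied among strains by edgeR, against 0.046% of all genes, and DESeq2 likewise called 0. In CAST/EiJ the sexes fall in separate blocks of title numbers, so a sex difference there cannot be told apart from one between blocks. At an unadjusted p below 0.05 there were 22 (13.8%, against 10.7% of all genes).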

How the data were processed

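Total RNA from hippocampus of 8 strains and both sexes was sequenced from TruSeq libraries, per the labels' protocols (4 libraries in each of 16 groups). The authors deposited whole-number counts of reads per gene for Ensembl 105 gene identifiers, and GRCm39 is named in the submitters' processing notes. The aligner, the counting tool, strand handling and the treatment of reads matching several genes are not given in the sources used here. Every column of the table belonged to a listed sample (0 unused).

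Symbols, gene types, chromosomes and gene order came from GENCODE M21 (GRCm38), which matched 32095 of 32227 identifiers; since that build differs, no coordinates are given. CPM used library sizes scaled by TMM. Genes were kept by filterByExpr (minimum count 10, minimum total 15), leaving 17382 (53.9%). edgeR 4.0.16 in R 4.3.3 fitted 16 group means with the robust quasi-likelihood method over all kept genes, and Benjamini-Hochberg adjustment ran over all of them. Contrasts were the F test among 8 strains, each strain minus the mean of the other 7, females minus males, and the strain by sex interaction. Strain calls needed an adjusted p below 0.05 and a log2 difference of at least 1. Each edgeR SE is the absolute log2 difference divided by the square root of the quasi-likelihood F statistic. It was not estimated separately and is approximate, above all for genes near 0 reads. The pipeline was tested on simulated data. The sources do not say whether libraries come from separate animals, so p-values measure the spread between these libraries, which may be technical.

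Genes named were, for each strain and direction, up to 3 called members with all 8 libraries outside the other 56, the 12 widest strain ranges, the 6 highest mean CPM, members called for sex, and members lost in a single strain; others were named for their role or as neighbours. Shared sequence was the share of transcript 50-mers found in any other gene. Alternatives were DESeq2 1.42.0, another normalization, no filter, no fold minimum, and fits without single libraries or groups of them. The members and lists were chosen with earlier results of these data known.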

Additional observations from a re-analysis of the deposited data

Results flagged for a closer look

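Each named member was checked within each strain for a library whose gap to its nearest neighbour, divided by the range of the 8 libraries, exceeded 0.526, a limit that chance passes in about 1 of 20 groups. Of 208 gene and strain groups 27 passed it, where chance gives about 10.4, and 10 of the 27 came from 2 libraries. A/J male 2 stood apart at 7.51 CPM for Zfp605, 41.2 for Zfp704, 61.7 for Zfp871, 6.21 for Zfp966, 2.99 for Zfp973 and 5.45 for Zfp974. 129S1/SvImJ female 1 stood apart at 6.63 CPM for Zfp605, 342 for Zfp706, 66.4 for Zfp871 and 5.62 for Zfp974. In these libraries the members summed to 2433 and 2519 CPM, the lowest of the 8 libraries of their own strain in each case.

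Further libraries stood apart for 1 to 3 genes. C57BL/6J male 4 had 7.64 CPM of Zfp605 and 85.3 of Zfp871, WSB/EiJ female 1 had 61.9 CPM of Zfp871, and PWK/PhJ male 4 had 270 CPM of Zfp706. NOD/ShiLtJ female 2 had 82.0 CPM of Zfp638 and 74.9 of Zfp664, and NOD/ShiLtJ male 2 had 77.6 CPM of Zfp651. The remaining 10 groups were of members below 3 CPM, where a few reads decide. They were C57BL/6J male 3 at 0.186 CPM of Zfp663 and 0.0371 CPM each of Zfp980 and Zfp990, C57BL/6J male 2 at 0.911 CPM of Zfp979, C57BL/6J female 2 at 0.0917 CPM of Zfp985, CAST/EiJ male 1 at 0.0427 CPM of Zfp979, 129S1/SvImJ female 2 at 1.20 CPM of Zfp980, A/J female 2 at 0.0436 CPM of Zfp980, A/J female 3 at 0.143 CPM of Zfp985, and NZO/HlLtJ female 2 at 0.492 CPM of Zfp982.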

How the results depend on the processing

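The count of members differing among strains was 44, and it was 44 with DESeq2 size factors, 48 without the filter on low counts, 45 with DESeq2, 43 without the 4 CAST/EiJ females, and 46 without 129S1/SvImJ female 1 and A/J male 2 together, an alternative chosen after seeing the data. All 44 were shared with the first 3 and the last, and 42 with the fit without CAST/EiJ females, which lost Zfp663 (no longer past the filter on low counts) and Zfp882. With no fold minimum it was 142. The counts higher and lower were then 40 and 27 in C57BL/6J, 34 and 19 in 129S1/SvImJ, 48 and 25 in NOD/ShiLtJ, 22 and 30 in A/J, 44 and 54 in CAST/EiJ, 48 and 39 in PWK/PhJ, 41 and 18 in NZO/HlLtJ, and 29 and 40 in WSB/EiJ. Otherwise a count moved by over 1.5 times in 6 cases: C57BL/6J higher became 4 without the filter, 129S1/SvImJ lower 2 and NZO/HlLtJ lower 2 both with DESeq2 and without CAST/EiJ females, and A/J lower 6 with DESeq2, which tests contrasts that edgeR could not. Leaving out each library in turn, testing each strain with its own libraries left out, gave 44 to 46 among strains and 1 to 3 lower in 129S1/SvImJ. The smallest group is then 3, which lets Zfp600 pass the filter. Apart from Zfp663, no named member changed its call in the alternatives that tested it, single libraries left out included. Direction was checked, and held, for the contrasts of members named for a single strain and for the sex difference of Zfp772. Members named for their range or level were checked on the F test alone, which has no direction. The strain contrasts printed for Zfp663, Zfp982, Zfp986 and Zfp990 were not followed through the alternatives. No paired analysis was possible because the labels give no replicate numbers that tie samples across groups. Members below 1 CPM have few reads a library, which limits their precision.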
